A study of Mus musculus with 16 samples.

Results

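Genes of sterol synthesis, uptake and regulation were followed in 16 mouse lung tumors profiled by RNA sequencing. A list of 30 symbols was taken: enzymes that carry acetyl-CoA units to cholesterol, the SREBP2 control proteins, and proteins that move, export or esterify sterols. The count files held 29 of them among 23284 symbols. The absent symbol, Msmo1, names the same gene as Sc4mol, which the files do hold. Of the 29 genes, 28 passed the filter on low counts and were tested among 14825 genes. Hmgcs1 was listed at 0 reads in all 16 files, as were 2275 symbols in total, so no level was read for it.

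The 16 samples were lung tumors of mice on a mixed 129/SvJ and C57BL/6 background, 9 labelled Max -/- and 7 labelled Max wild-type. All carried the RP alleles, a name commonly used for conditional Rb1 and Trp53 alleles in a model of small cell lung cancer, although the labels do not spell it out. Deletion in both groups followed delivery of a Cre adenovirus through the trachea, with Cre under the CMV promoter, which is not restricted to 1 cell type. The sources used here give no ages. The comparison asks how these genes differ between tumors with and without Max. No label ties a tumor to a mouse, so the p-values reflect only how far these 16 samples spread, and some tumors may share an animal.

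Cholesterol is built in the endoplasmic reticulum. Acetyl-CoA is turned into mevalonate and then into isoprenoid units, which are joined to squalene, folded to lanosterol and trimmed to cholesterol. When membrane sterol is low, SCAP escorts the transcription factor SREBP2 to the Golgi, where it is cut free to enter the nucleus and raise transcription of most of these enzymes. When sterol is high, INSIG proteins hold SCAP in place. MAX is the partner through which MYC proteins bind DNA, at the E-box CACGTG, and through which the MXD, MNT and MGA proteins bind it too. Proliferating tumor cells need sterol for new membrane.

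Because MAX complexes bind E-boxes, the 250 bases upstream of each RefSeq transcription start (mouse build GRCm38.p6) were searched on both strands for CACGTG. The CCAAT box (CCAAT) and a sterol element (TCACNCCAC, where N is any base) were searched in the same way, and in the members' windows no match overlapped a match of another motif. RefSeq windows were matched for 23 of the 29 genes, 29 windows in all. An E-box lay in 6 of the 29 windows, of 6 genes, against 6.02% of all 32817 windows. CCAAT lay in 20 of the 29 windows, against 33.83% of all windows. The sterol element lay in 1 window, that of Hmgcs1, against 1.05% of the 32817. A match is a description of the letters in these windows, and no binding was measured. The 6 E-boxes are shown first with the bases around them, 5′ to 3′ on the strand of the gene, with the E-box in capitals.
Scap (chr9:110333304-110333333, plus strand, E-box 40 bases upstream of a start): cgccgccgggagCACGTGtggagggcggcg
Insig1 (chr5:28071299-28071328, plus strand, 101 bases upstream): gctgggtgaggtCACGTGgctccggtggca
Hsd17b7 (chr1:169969331-169969360, minus strand, 143 bases upstream): ggacccttgtgtCACGTGgctccgcccctc
Dhcr7 (chr7:143823223-143823252, plus strand, 164 bases upstream of a start): cgctgtgatgaaCACGTGgcaaaaagcagc
Sc5d (chr9:42264381-42264410, minus strand, 98 bases upstream): ctacgcggcgacCACGTGaccgccgcgacc
Abca1 (chr4:53160025-53160054, minus strand, 147 bases upstream): gggccatgtctcCACGTGctttctgctgag

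Scap and Dhcr7 each have several annotated starts, and their E-boxes lie upstream of an inner one, inside the gene as read from the outermost start. Whole windows are given for Hsd17b7 and Insig1, which hold both an E-box and CCAAT boxes, and for Lss, which was among the genes with the largest difference and holds no E-box. Capitals mark CACGTG, and CCAAT or its reverse complement ATTGG.
Hsd17b7 (chr1:169969206-169969455, minus strand): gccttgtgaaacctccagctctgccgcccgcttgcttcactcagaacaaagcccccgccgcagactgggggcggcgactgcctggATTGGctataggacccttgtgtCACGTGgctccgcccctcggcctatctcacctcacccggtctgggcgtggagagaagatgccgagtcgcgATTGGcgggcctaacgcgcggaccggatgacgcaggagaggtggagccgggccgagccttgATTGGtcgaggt
Insig1 (chr5:28071162-28071411, plus strand): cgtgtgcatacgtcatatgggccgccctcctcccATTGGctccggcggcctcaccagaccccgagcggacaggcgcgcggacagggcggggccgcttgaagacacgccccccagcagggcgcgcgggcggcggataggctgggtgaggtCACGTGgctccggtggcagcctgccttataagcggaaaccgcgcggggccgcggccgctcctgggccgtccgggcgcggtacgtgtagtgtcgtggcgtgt
Lss (chr10:76531355-76531604, plus strand): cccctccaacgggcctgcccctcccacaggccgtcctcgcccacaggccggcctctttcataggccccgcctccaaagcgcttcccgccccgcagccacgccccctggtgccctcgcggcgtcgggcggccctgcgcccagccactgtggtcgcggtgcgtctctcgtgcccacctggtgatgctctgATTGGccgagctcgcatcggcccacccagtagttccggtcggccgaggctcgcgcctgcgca

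**Figure D1:**
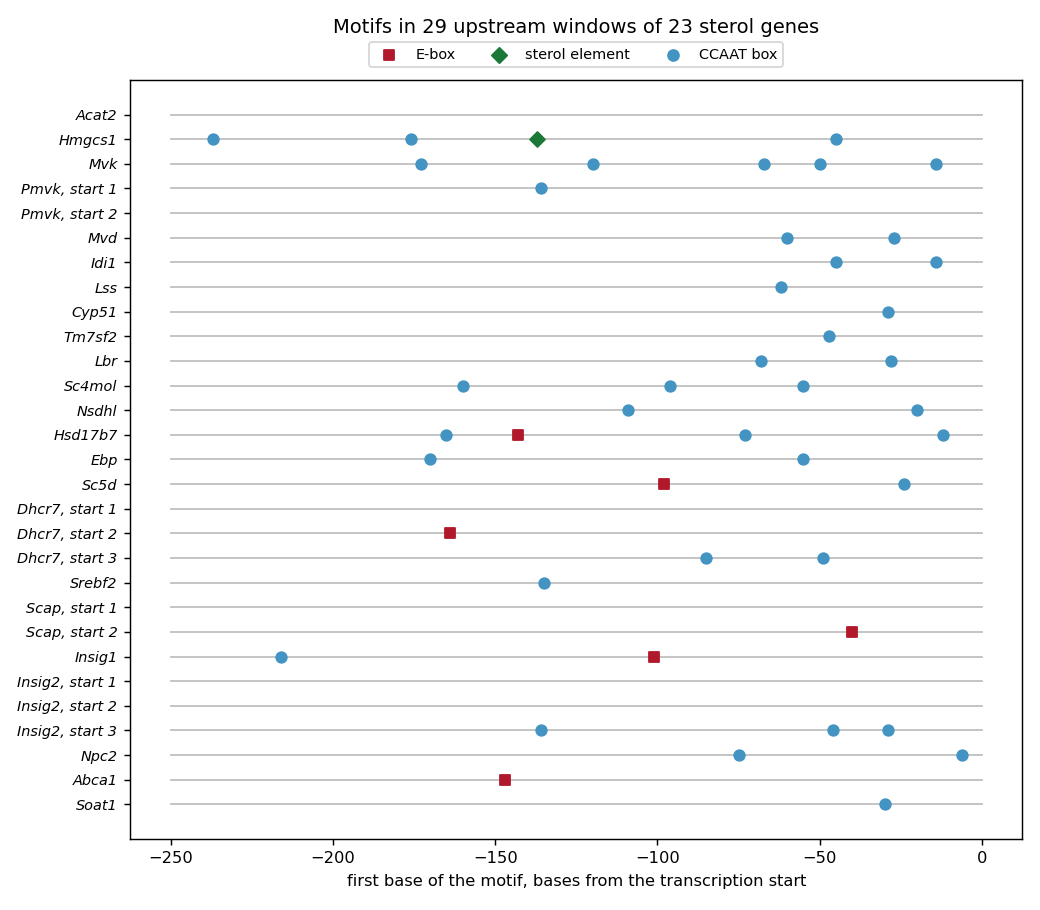
Positions of the 3 motifs in 29 upstream windows of 23 sterol genes, with the horizontal axis in bases from the transcription start and 1 line for each window. The 6 E-boxes lie between 164 and 40 bases upstream, and the sterol element is in the Hmgcs1 window.

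Reads in genes numbered 8.66 to 15.11 M per tumor, so counting error is small against the spread between tumors for all but the lowest of these genes. Values are CPM, counts per M reads in genes on TMM-scaled library sizes. Max itself did not pass the test (log2 difference 0.18 ± 0.11, SE, adjusted p = 0.281, edgeR's quasi-likelihood test), but its count covers the whole gene and cannot check the deletion. All 10 neuroendocrine markers listed for the tumor type were above 0 in every tumor and none was called. The libraries differed in another way: reads aligned to several places in the genome were 9.17% to 11.8% of all reads in null and 12.3% to 22.2% in wild-type tumors, without overlap (exact two-sided permutation p = 8.74e-05, the smallest that 11440 splits allow; 0.000874 adjusted over 10 library properties and marker sums). Wild-type tumors 2, 4 and 7 had the highest shares. The summed CPM of 10 macrophage markers was also lower in null tumors, at 234 to 443 against 322 to 801 (exact two-sided permutation p = 0.00813, adjusted 0.0406), and 4 of the 10 were called lower: Cd68, C1qa, C1qb and C1qc. Over all genes 8.64% were called lower. Log2 differences, null minus wild-type, were below 0 for 8 of the 10. Csf1r (0.35) and Cd14 (0.43) were above 0, and Emr1 (-0.03) and Mrc1 (-0.02) were near 0. With length and GC offsets 2 of the 10 were called lower, beside 5.52% of all genes. Without wild-type tumors 2, 4 and 7 none was, beside 0.871% of all genes. None of the 10 was at 0 in all tumors. The sums of the other marker lists had adjusted p of 0.399 or more. Among 8 alveolar type 2 markers, Abca3, a lipid transporter of surfactant storage, was called higher (1.25 ± 0.22, adjusted p = 0.00347, edgeR), with groups that did not overlap. The part of these differences in the results below was not tested beyond the values given.

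Of the 28 sterol genes tested, 5 were higher in Max null tumors, none was lower and 23 did not pass (edgeR's quasi-likelihood test, Benjamini-Hochberg adjusted p under 0.05 over all genes). Over all 14825 genes, 7.4% were called higher and 8.64% lower. The 5 were Scap, the sterol sensor that carries SREBP2; Lss, which makes lanosterol; Hsd17b7 and Dhcr7, of the last steps to cholesterol; and Stard4, a cytosolic sterol carrier. All differences are given as null minus wild-type on the log2 scale. They were above 0 for 21 of the 28, with a median of 0.20 against -0.03 over all genes. Groups did not overlap for Scap and Lss, with all 9 null tumors above all 7 wild-type tumors. Over all genes, 1.56% had groups without overlap, and 0.917% had the null group above. Without wild-type tumors 2, 4 and 7, 1 of the 5 was still called, Scap, beside 0.805% of all genes called higher and 0.871% lower in that fit, and the median of the 28 was 0.25. With offsets for gene length and GC content, 5 of the 28 were called higher (Lss, Hsd17b7, Dhcr7, Stard4 and Insig1, with Scap no longer called) and none lower, beside 5.06% of all genes higher and 5.52% lower, and the median of the 28 was 0.30. In bulk tumors, fewer cells of a type and less RNA per cell cannot be told apart.

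**Figure D2:**
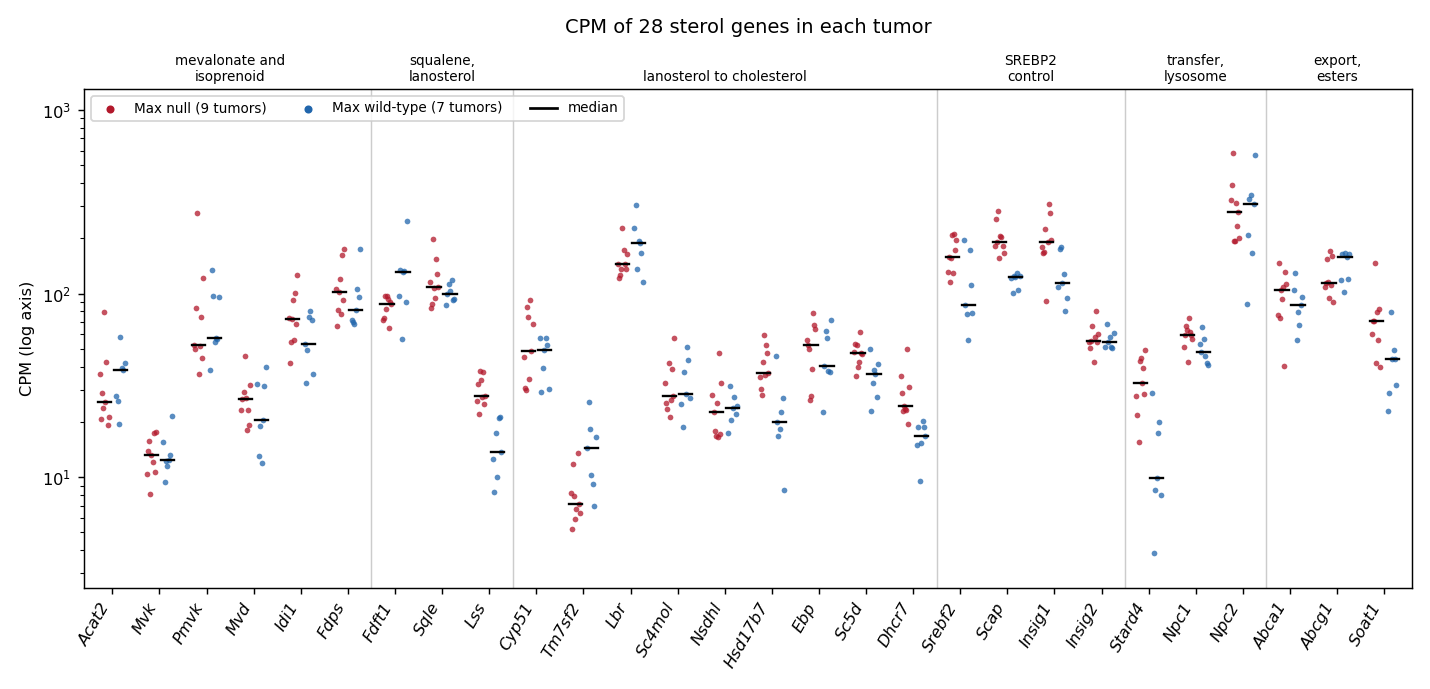
CPM on a log axis for the 28 tested sterol genes, 1 point a tumor, grouped by role, with black lines at the group medians. Scap and Lss separate the 9 null tumors from the 7 wild-type tumors, and Pmvk, Npc2 and Stard4 spread widely within a group.

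The differences sat at separate steps of the pathway. Among the 18 synthesis enzymes tested, 3 were higher and 15 did not pass, and 12 of the 18 had differences above 0 (median 0.19). The medians by role were 0.19 for the 6 mevalonate and isoprenoid steps, 0.25 for the 3 squalene and lanosterol steps, 0.12 for the 9 steps from lanosterol to cholesterol, 0.62 for the 4 genes of SREBP2 control, 0.24 for the 3 genes of transfer and lysosomal release, and 0.16 for the 3 of export and esterification. Their order and 1 direction changed with length and GC offsets, where these medians were, in the same order, 0.39, 0.31, 0.30, 0.34, 0.0034 and -0.35. The summed CPM of the synthesis enzymes was 780 to 1279 in null tumors (median 950.4) and 825 to 1120 in wild-type tumors (median 971), so the ranges of the groups overlapped over most of their extent. The summed CPM of the 4 control genes was 498 to 805 in null tumors (median 618) and 346 to 481 in wild-type tumors (median 431), without overlap. Of these 4 genes, Scap alone had groups without overlap, and Srebf2, Insig1 and Insig2 were not called. The sum includes Scap, and no share of such sums without overlap is given here over all genes.

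**Figure D3:**
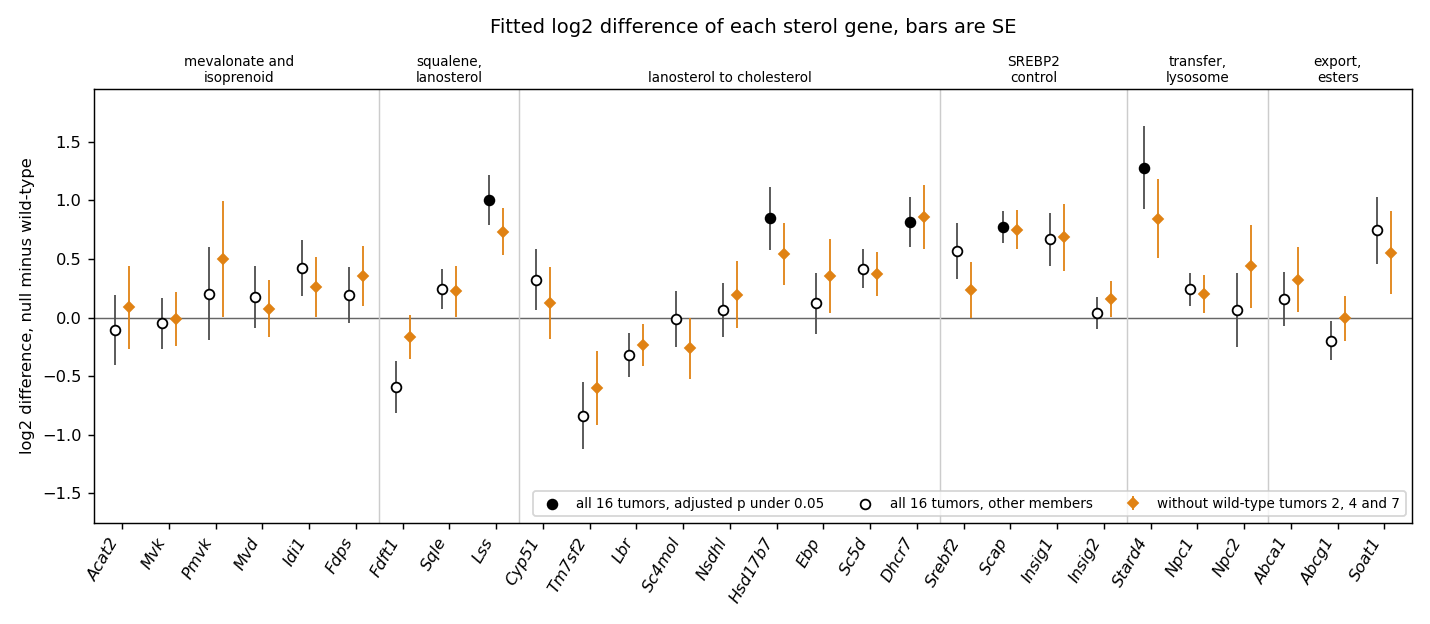
Fitted log2 difference, null minus wild-type, of each of the 28 sterol genes, with bars of 1 SE; circles are the fit with all 16 tumors (filled where called) and orange diamonds the fit without wild-type tumors 2, 4 and 7. Scap, Lss, Dhcr7, Hsd17b7 and Stard4 were called with all tumors, at 0.77 to 1.28.

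None of the 6 tested enzymes of the mevalonate and isoprenoid steps passed. Acat2, which joins acetyl-CoA units to acetoacetyl-CoA, measured 19.3 to 79.6 CPM in null tumors (median 25.7) and 19.5 to 57.7 in wild-type tumors (median 38.2). Its difference was -0.11 ± 0.30 (SE), and the highest null tumor, number 5, stood well above the others. Mevalonate kinase (Mvk) measured 8.12 to 17.5 CPM in null tumors (median 13.3) and 9.47 to 21.6 in wild-type tumors (median 12.4). The groups largely overlapped, with a difference of -0.05 ± 0.22. Pmvk, the next kinase, measured 36.6 to 275 CPM in null tumors (median 52.4) and 38.2 to 135 in wild-type tumors (median 57.4). Null tumor 4 set that upper end, and Pmvk had the widest spread of all members among null tumors (a coefficient of variation of 85.2%); its difference was 0.21 ± 0.39 with all tumors and -0.24 without null tumor 4.

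Mvd, which makes isopentenyl diphosphate, measured 18.0 to 45.6 CPM in null tumors (median 26.6) and 11.9 to 40.1 in wild-type tumors (median 20.4). Its difference of 0.18 ± 0.26 ranged from 0.0492 without null tumor 4 to 0.34 without wild-type tumor 7. Idi1, the isomerase that balances the isoprenoid units, had the largest difference of these steps, 0.42 ± 0.24 (adjusted p = 0.23, edgeR). It measured 41.7 to 126 CPM in null tumors (median 72.4) and 32.5 to 80.2 in wild-type tumors (median 53.2), and 3 of 9 null tumors were above every wild-type tumor. Fdps, which makes farnesyl diphosphate, the branch point to sterols and prenylated proteins, measured 66.2 to 176 CPM in null tumors (median 102) and 68.1 to 176 in wild-type tumors (median 81.1). Its groups covered nearly the same range, and the difference was 0.19 ± 0.24.

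At the 3 steps that make and fold squalene, Lss alone was called. Lss, the cyclase that folds squalene epoxide into lanosterol, measured 22.1 to 37.8 CPM in null tumors (median 27.7, mean 29.9 ± 5.56, SD, n = 9) and 8.30 to 21.2 in wild-type tumors (median 13.8, mean 14.9 ± 5.11, n = 7). All 9 null tumors were above all 7 wild-type tumors. The log2 difference was 1.005 ± 0.21 (SE; adjusted p = 0.00781, edgeR's quasi-likelihood test). Lss was called in all 16 fits that left out 1 tumor. The difference was 0.73 ± 0.20 and no longer called without wild-type tumors 2, 4 and 7 (adjusted p = 0.0709, edgeR), and 0.70 ± 0.28 with the share of multiply aligned reads in the model (adjusted p = 0.282). In that model 0.0675% of all genes were called in either direction.

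Fdft1, squalene synthase, which commits farnesyl units to sterols, had a difference below 0 that did not pass. It measured 65.1 to 97.0 CPM in null tumors (median 87.8) and 56.6 to 249 in wild-type tumors (median 132). No null tumor was above the wild-type median, but the difference of -0.60 ± 0.22 (adjusted p = 0.0719, edgeR) was -0.16 without wild-type tumors 2, 4 and 7, -0.35 without wild-type tumor 7 alone (adjusted p = 0.188) and 0.0566 with the share of multiply aligned reads in the model. It passed without wild-type tumor 3 (-0.72, adjusted p = 0.0191). It just missed with length and GC offsets (-0.72, adjusted p = 0.0501, edgeR) and with DESeq2 (-0.59, adjusted p = 0.053). With limma-voom it was -0.41 (adjusted p = 0.134). Fdft1 shares 18.31% of its exon bases with Ctsb on the opposite strand in GENCODE M21, so its count is uncertain where strand was not used. Sqle, squalene epoxidase, a control point of the pathway, measured 84.0 to 199 CPM in null tumors (median 108) and 86.4 to 118 in wild-type tumors. Its difference was 0.25 ± 0.17 (adjusted p = 0.332, edgeR), with null tumors 4 and 7 among the 3 above every wild-type tumor. Without null tumor 4 it was 0.12.

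From lanosterol to cholesterol, 2 of 9 tested enzymes were higher, Hsd17b7 and Dhcr7. Dhcr7, the reductase that turns 7-dehydrocholesterol into cholesterol, measured 19.5 to 49.8 CPM in null tumors (median 24.4, mean 28.8 ± 9.33, SD, n = 9) and 9.54 to 20.2 in wild-type tumors (median 16.9, mean 16.3 ± 3.57, n = 7). Only the lowest null tumor, number 8 at 19.5 CPM, fell within the wild-type range. The log2 difference was 0.82 ± 0.21 (SE; adjusted p = 0.0201, edgeR's quasi-likelihood test). It was called in all 16 fits without 1 tumor and was of similar size but not called without wild-type tumors 2, 4 and 7 (0.86 ± 0.27, adjusted p = 0.108), and limma-voom with quality weights placed it just above the threshold (adjusted p = 0.0555).

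Hsd17b7, which reduces the sterol ketone after demethylation, measured 28.0 to 59.1 CPM in null tumors (median 37.1, mean 40.9 ± 10.4, SD, n = 9) and 8.50 to 45.5 in wild-type tumors (median 20.0, mean 22.7 ± 11.6, n = 7). Wild-type tumor 1, at 45.5 CPM, lay inside the null range and the other 6 lay below it. The log2 difference was 0.85 ± 0.27 (SE; adjusted p = 0.0396, edgeR's quasi-likelihood test). The call rested near the threshold. It held in 5 of 16 fits that left out 1 tumor, with adjusted p reaching 0.0785 without wild-type tumor 4, and failed without null tumors 1, 4, 5, 6, 7 or 8 and without wild-type tumors 2, 3, 4, 5 or 7. With the share of multiply aligned reads in the model the difference was 0.29 (adjusted p = 0.747, edgeR).

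Cyp51, the lanosterol demethylase, measured 29.8 to 92.8 CPM in null tumors (median 48.9) and 29.1 to 57.6 in wild-type tumors (median 49.5). The medians were close although 4 null tumors exceeded every wild-type tumor (difference 0.32 ± 0.26, and 0.20 without null tumor 7). Tm7sf2 and Lbr both encode sterol C14 reductases, Lbr also being an inner nuclear membrane protein. Tm7sf2 measured 5.20 to 13.6 CPM in null tumors (median 7.15) and 6.97 to 25.6 in wild-type tumors (median 14.4). Its difference, -0.84 ± 0.29, just missed the threshold (adjusted p = 0.0524, edgeR). It passed with DESeq2 (adjusted p = 0.024) and without null tumor 3 or 7 or wild-type tumor 5 or 6. It was -0.53 with limma-voom (adjusted p = 0.179) and -0.66 with length and GC offsets (adjusted p = 0.122, edgeR). Without wild-type tumors 2, 4 and 7 it was -0.60 (adjusted p = 0.314, edgeR). Tm7sf2 shares 12.08% of its exon bases with Vps51 on the same strand. Lbr measured 122 to 227 CPM in null tumors (median 144) and 115 to 305 in wild-type tumors (median 188), a difference of -0.32 ± 0.19 that was -0.16 without wild-type tumor 2.

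The remaining enzymes from lanosterol to cholesterol did not pass with all tumors. Sc4mol, the C4 methyl oxidase, measured 21.3 to 57.2 CPM in null tumors (median 27.7) and 18.7 to 51.4 in wild-type tumors (median 28.3), with a difference of -0.01 ± 0.24. Nsdhl, which removes the oxidised C4 methyl group, measured 16.6 to 47.8 CPM in null tumors (median 22.6) and 17.5 to 31.2 in wild-type tumors (median 23.9). For both genes the group medians lay close together, and the Nsdhl difference was 0.07 ± 0.23. Ebp, the sterol isomerase, measured 26.3 to 78.8 CPM in null tumors (median 52.5) and 22.6 to 72.0 in wild-type tumors (median 40.5), a difference of 0.12 ± 0.26. Sc5d, the desaturase that makes 7-dehydrocholesterol for Dhcr7, measured 35.5 to 62.0 CPM in null tumors (median 47.5) and 23.0 to 50.0 in wild-type tumors (median 36.7). In 8 of 9 null tumors Sc5d was above the wild-type median; its difference of 0.42 ± 0.17 did not pass with all tumors (adjusted p = 0.0917, edgeR) and passed with limma-voom (adjusted p = 0.0483) and without wild-type tumor 1 (0.52, adjusted p = 0.0329).

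Among the 4 genes of SREBP2 control, Scap alone was called. Scap measured 157 to 280 CPM in null tumors (median 192, mean 202 ± 40.3, SD, n = 9) and 101 to 129 in wild-type tumors (median 123, mean 118 ± 11.2, n = 7). The groups did not overlap, and the wild-type tumors were more alike for Scap than for any other member (coefficient of variation 9.5%). The log2 difference was 0.77 ± 0.14 (SE; adjusted p = 0.00343, edgeR's quasi-likelihood test). It was 0.75 ± 0.17 without wild-type tumors 2, 4 and 7 (adjusted p = 0.0423) and 0.76 ± 0.19 with the share of multiply aligned reads in the model, a fit that did not call it (adjusted p = 0.138). Length and GC offsets lowered it to 0.42 (adjusted p = 0.0598, edgeR).

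Srebf2, the gene of SREBP2 itself, measured 116 to 212 CPM in null tumors (median 158) and 55.6 to 195 in wild-type tumors (median 86.8). All 9 null tumors were above the wild-type median, while wild-type tumors 1 and 5, at 195 and 173 CPM, lay inside the null range. The difference of 0.57 ± 0.24 did not pass (adjusted p = 0.109, edgeR). It was 0.24 without wild-type tumors 2, 4 and 7, 0.26 with length and GC offsets and 0.0461 with the share of multiply aligned reads in the model (adjusted p = 0.961), and it passed without wild-type tumor 1 (0.77, adjusted p = 0.0264). Insig1, the retention protein that is itself an SREBP target, measured 91.3 to 308 CPM in null tumors (median 191) and 80.5 to 180 in wild-type tumors (median 114). The lowest null tumor was number 5, and 5 of 9 null tumors were above every wild-type tumor. Its difference was 0.67 ± 0.23, just short of the threshold (adjusted p = 0.0521, edgeR), and passed with DESeq2 (adjusted p = 0.0291), with limma-voom (0.025), with length and GC offsets (0.044) and without null tumor 5 (0.76), wild-type tumor 2 or wild-type tumor 3. Insig2, its paralog, measured 42.4 to 80.6 CPM in null tumors (median 55.2) and 50.6 to 68.4 in wild-type tumors (median 54.6), a difference of 0.04 ± 0.14.

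**Figure D4:**
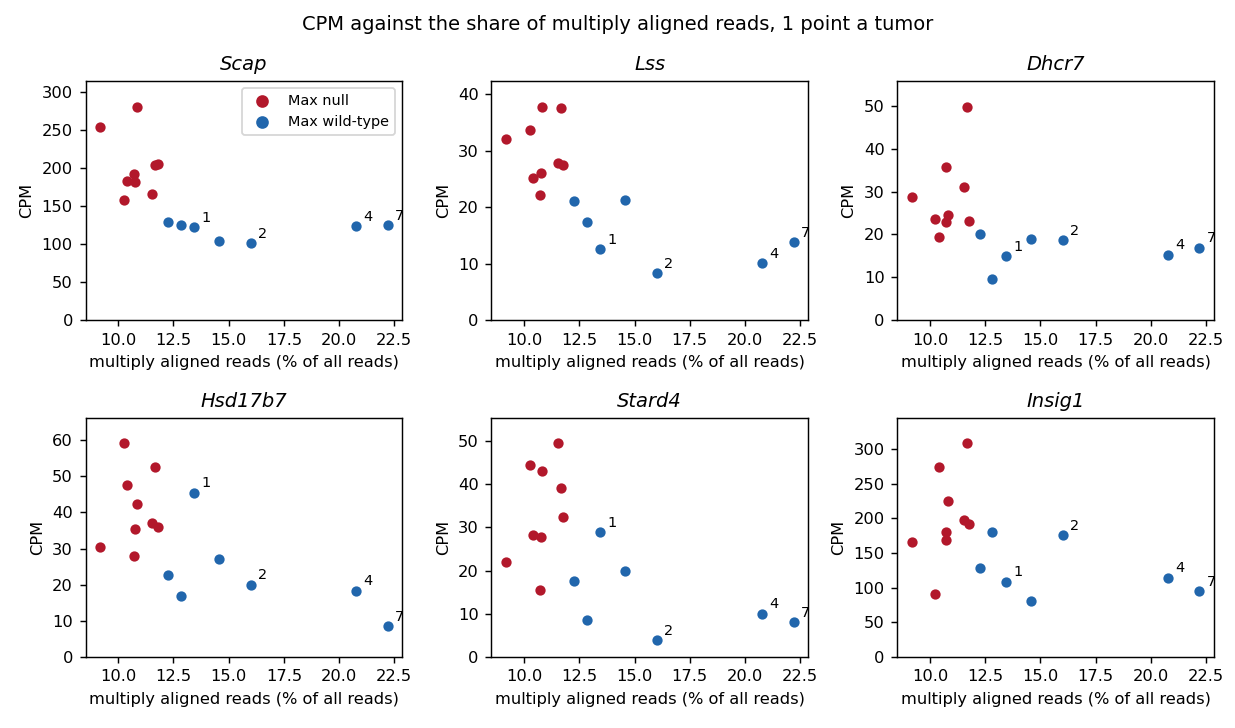
CPM of Scap, Lss, Dhcr7, Hsd17b7, Stard4 and Insig1 against the percentage of multiply aligned reads, 1 point a tumor, with wild-type tumors 1, 2, 4 and 7 numbered. Null tumors lie at 9.17% to 11.8% and wild-type tumors at 12.3% to 22.2%, so the groups share no range of the horizontal axis.

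Of the genes that move sterol within the cell, Stard4 was called. Stard4 carries cholesterol through the cytosol between membranes. It measured 15.5 to 49.5 CPM in null tumors (median 32.5, mean 33.6 ± 11.3, SD, n = 9) and 3.86 to 28.9 in wild-type tumors (median 9.96, mean 13.8 ± 8.69, n = 7). The 4 wild-type tumors below every null tumor were numbers 2, 3, 4 and 7, and 5 null tumors were above every wild-type tumor. The log2 difference was 1.28 ± 0.35, the largest among the members (SE; adjusted p = 0.0242, edgeR's quasi-likelihood test). It was 0.84 ± 0.34 and not called without wild-type tumors 2, 4 and 7 (adjusted p = 0.191), and leaving out wild-type tumor 4 or 7 alone ended the call (adjusted p = 0.0512 and 0.0511).

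Npc1 and Npc2 hand cholesterol out of the lysosome after lipoprotein uptake. Npc1 measured 42.4 to 74.1 CPM in null tumors (median 59.3) and 40.9 to 65.7 in wild-type tumors (median 47.8), a difference of 0.24 ± 0.14 with all tumors and -0.0014 with length and GC offsets. Npc2 was the highest member per kb of transcript, with a mean of 91.1 CPM per kb in null and 87.2 in wild-type tumors. It measured 193 to 580 CPM in null tumors and 88.0 to 567 in wild-type tumors, a difference of 0.06 ± 0.32.

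No gene of export or esterification passed. Abca1 and Abcg1, the ABC transporters that LXR raises when oxysterols accumulate, had differences of 0.16 ± 0.23 and -0.20 ± 0.17. Abca1 measured 40.3 to 146 CPM in null tumors (median 105) and 56.2 to 129 in wild-type tumors (median 86.4), and Abcg1 measured 89.9 to 170 (median 114) and 102 to 167 (median 158). With length and GC offsets Abca1 was at -0.35 and Abcg1 at -0.57 (adjusted p = 0.0714, edgeR). Soat1, which stores cholesterol as esters, measured 39.7 to 147 CPM in null tumors (median 70.8) and 23.0 to 79.6 in wild-type tumors (median 44.2). Its difference of 0.74 ± 0.28 did not pass (adjusted p = 0.0784, edgeR), and passed with DESeq2 (adjusted p = 0.0496) and without wild-type tumor 3 (0.97, adjusted p = 0.0243). The difference of Soat1 stayed above 0 but was smaller and not called in some other fits. It was at 0.42 with length and GC offsets (adjusted p = 0.354, edgeR) and 0.66 with limma-voom (adjusted p = 0.0766). Without the 3 wild-type tumors of highest multiply aligned share it was 0.56 (adjusted p = 0.414, edgeR). With that share in the model it was 0.47 (adjusted p = 0.638, edgeR).

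Tumors differed as well in how many sterol genes stood high at once. In null tumors 12 to 22 of the 28 genes were above their median over all 16 tumors (median 15), and in wild-type tumors 9 to 13 (median 11). These counts come from the same values as the differences above, and no such count is given here over all genes. Null tumor 7 was the highest of all tumors for 8 genes and null tumor 4 for 6, while wild-type tumor 2 was the lowest for 7. The median coefficient of variation over the 28 genes was 32.04% for the null group and 33.8% for the wild-type group. Insig1 and Sqle, both SREBP targets, were followed across tumors as 1 of 5 gene pairs in each group, 10 relations in all, chosen after the values were seen. For this pair in null tumors (n = 9) Pearson's r was 0.512 (exact permutation p = 0.161) and Spearman's rho 0.783 (exact permutation p = 0.0172, adjusted 0.172). In wild-type tumors (n = 7) r was 0.606 (exact permutation p = 0.156) and rho 0.714 (exact permutation p = 0.0881, adjusted 0.441). Leaving out the 2 tumors farthest from the median of Insig1 gave r of 0.664 and 0.677. This pair had the highest r in both groups. The other pairs with Insig1 had lower r in null tumors (0.0973 with Idi1, 0.184 with Cyp51 and 0.048 with Srebf2) and r below 0 in wild-type tumors (-0.38, -0.38 and -0.183), and for Abca1 with Abcg1 r was 0.134 and 0.416. Leaving out the same 2 tumors raised r for these Insig1 pairs to 0.35, 0.58 and 0.52 in null tumors. In wild-type tumors it turned r to 0.32, 0.34 and 0.21. For Abca1 with Abcg1, leaving out the 2 tumors farthest from the median of Abca1 gave r of 0.33 and -0.51. None of the 10 relations passed after adjustment.

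The 6 genes with an E-box in the upstream window had differences from 0.16 to 0.85, with a median of 0.72, and 3 of them were called (Scap, Hsd17b7 and Dhcr7). With length and GC offsets Abca1, the lowest of the 6, was at -0.35. The 16 tested genes whose windows held none ranged from -0.84 to 1.005, with a median of 0.10, and Lss alone was called. Stard4, also called, had no window in this search, which left out chr18 for the members. It is in neither group, like Fdps, Fdft1, Sqle, Abcg1 and Npc1. The shares over all genes that follow kept chr18. Over all tested genes with a window, 12.2% of the 1009 with an E-box and 7.28% of the 9469 without were called higher, with median differences of 0.06 and -0.03. The grouping of the members was made after the values were seen and was not tested.

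Outside the list, 66 other genes of sterol handling were tested, of which 6 were higher, 1 was lower and 59 did not pass, with a median of 0.03. These counts stand beside 7.4% of all genes called higher and 8.64% lower, and the share called higher was near that background. None of the 13 genes of isoprenoid branches and none of the 5 electron donors of sterol enzymes was called. Among 11 genes of SREBP processing and sterol control in the endoplasmic reticulum, 2 were higher. Rnf145, a ubiquitin ligase of sterol-sensing complexes, measured 117 to 290 CPM in null tumors (median 178) and 77.1 to 132 in wild-type tumors (median 91.6), with 7 null tumors above every wild-type tumor. Its difference was 0.88 ± 0.20 (adjusted p = 0.00954, edgeR's quasi-likelihood test) and it was called in all 16 fits without 1 tumor. Erlin1, a lipid raft protein of the endoplasmic reticulum that takes part in degrading sterol-sensing proteins, measured 49.9 to 69.3 CPM in null tumors and 19.0 to 65.2 in wild-type tumors, but its call at 0.65 ± 0.21 held in 4 of 16 such fits. Srebf1, the SREBP more tied to fatty acid synthesis, was at -0.09 ± 0.20, and the protease Mbtps1, which makes the first cut in SREBPs, at 0.17 ± 0.20.

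Uptake and lysosomal genes gave 4 further calls. Of 6 genes of lipoprotein uptake, Lrp1, an endocytic receptor, and Scarb1, the HDL receptor, were higher. Lrp1 measured 57.3 to 194 CPM in null tumors (median 94.5) and 31.7 to 108 in wild-type tumors (median 49.9), a difference of 0.91 ± 0.26 that was 0.14 with length and GC offsets. Scarb1 measured 49.2 to 84.0 CPM in null tumors and 27.8 to 53.8 in wild-type tumors, with 6 of 9 null tumors above every wild-type tumor (0.54 ± 0.16). Of 17 genes of transfer and lysosomal handling, the lysosomal membrane protein Scarb2 (0.66 ± 0.19) and Osbpl5, of the oxysterol-binding protein family (1.002 ± 0.30), were higher, with Osbpl5 no longer called under length and GC offsets (0.71). Of 14 LXR and oxysterol genes 1 was lower: Soat2, the second cholesterol esterifying enzyme, a low-level gene at 1.31 to 4.26 CPM in null and 3.86 to 10.8 in wild-type tumors (-1.01 ± 0.30). Adjusted p for these 5 were 0.0265 to 0.0329 (edgeR's quasi-likelihood test), and each call was lost in 3 or 4 of the 16 fits without 1 tumor: Lrp1 without null tumor 4 or wild-type tumor 4 or 7, Scarb1 without null tumor 4 or 7 or wild-type tumor 4 or 5, Scarb2 without wild-type tumor 2, 4 or 7, Osbpl5 without null tumor 2 or 3 or wild-type tumor 4 or 6, and Soat2 without null tumor 2 or 6 or wild-type tumor 7. Without wild-type tumors 2, 4 and 7 none of the 66 was called, beside 0.805% of all genes called higher and 0.871% lower in that fit.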

How the data were processed

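The authors deposited read counts, 1 whole number per gene symbol for each of 16 tumors. Per the submitters' processing notes, the build was mm9 and the tools included HTSeq 0.6.1, TopHat, TopHat2 2.0.12 and bcl2fastq 1.8.4; annotation, strand setting and filters: not given in the sources used here. Reads outside genes or at several places, 29.2% to 32.9% of reads in null and 32.8% to 45.6% in wild-type tumors, stayed out of library sizes and tests. Deposited counts were tested in R 4.3.3 by the quasi-likelihood test of edgeR 4.0.16, with filterByExpr and TMM factors, adjusted (Benjamini-Hochberg) over all 14825 genes, called at an adjusted p of 0.05. The SE is the log2 difference divided by the square root of F. The fit was tested on simulated counts.

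All members in the files were named, with all called genes of the other lists and Srebf1 and Mbtps1 as context. Members and lists were chosen with earlier results of these data known. Alternatives were other scalings, DESeq2 1.42.0, limma 3.58.1 (voom with quality weights), other filters, the multiply aligned share as covariate, length and GC offsets (GENCODE M21 and its genome; 98.9% of genes had values, the rest no offset), a replicate block and leaving out tumors. Promoters are RefSeq's (GRCm38.p6), and no coordinate of the files was used. Some genes of the pathway are not reported on.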

Additional observations from a re-analysis of the deposited data

Results flagged for a closer look

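In 7 of 56 groups of CPM values (28 genes in 2 genotypes), a single tumor stood farther from its group than the 95% limit of Dixon's test. Chance gives this in about 5% of groups where values are normally distributed and groups independent. These values were CPM without a log scale, and the 28 genes share the same tumors. All 7 were the highest value of their group, so the 5% is only a rough guide here. Null tumor 4 was apart for Pmvk at 274.7 CPM (the next tumor was at 122), Mvd at 45.61 (31.8) and Soat1 at 147.2 (82.7). Null tumor 5 was apart for Acat2 at 79.64 CPM (42.6) and Lbr at 226.9 (173). Wild-type tumor 7, which also had the largest share of multiply aligned reads, was apart for Fdps at 176.1 CPM (106) and Fdft1 at 249.1 (135). None of the 5 sterol genes called higher was among them.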

How the results depend on the processing

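The 5 calls among the 28 sterol genes changed with the tumors entered and with the model, and so did the share of all genes called. The number called higher was 1 without wild-type tumors 2, 4 and 7 together, beside 0.805% of all genes, against 7.4% with all tumors. It was 0 with the share of multiply aligned reads as covariate, where 0.0675% of all genes were called in either direction. It ranged from 3 (without wild-type tumor 4 or 7) to 7 when 1 tumor was left out. The tumor number does not pair the samples: deviations of same-numbered tumors correlated at -0.17 to 0.23, and no tumor correlated best with its own number. With the replicate block on tumors 1 to 7, 1 gene was called higher, and in the same 14 tumors without the block, an alternative chosen after seeing the data, 3. The number called lower, 0 as reported (edgeR), was 1 with upper-quartile factors, with DESeq2 and with at least 5 CPM in 7 tumors. It was 0 to 1 when 1 tumor was left out. DESeq2 called 10.4% of all genes higher and 12.1% lower, against 7.4% and 8.64% with edgeR. Shares over all genes are not given here for the other fits of this paragraph. The median difference of 0.20 ranged from 0.14 to 0.26 without 1 tumor. The cause of these changes was not tested.

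Only differences that had not passed changed sign. With voom Pmvk was at -0.0334, Cyp51 at -0.0371 and Nsdhl at -0.11; with no filter Sc4mol was at 0.0198; without wild-type tumors 2, 4 and 7 Acat2 was at 0.0874. With the covariate Acat2 was at 0.30, Mvk at 0.20, Fdft1 at 0.0566 and Abcg1 at 0.0456. With length and GC offsets Acat2 was at 0.0538, Mvk at 0.0706, Sc4mol at 0.21, Npc1 at -0.0014 and Abca1 at -0.35. With the block Pmvk was at -0.0423, Nsdhl at -0.0106 and Ebp at -0.0082, and without it in those tumors Acat2 was at 0.0438. Leaving out 1 tumor gave -0.16 to 0.14 for Sc4mol, -0.11 to 0.31 for Npc2, -0.12 to 0.0876 for Mvk, -0.24 to 0.40 for Pmvk, -0.11 to 0.15 for Nsdhl, -0.0328 to 0.0908 for Insig2 and -0.38 to 0.0487 for Acat2.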
